A study of Mus musculus with 2 samples.

Results

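Jchain encodes the joining chain of polymeric IgM and IgA, and 6 other genes of antibody secreting cells were described with it: Mzb1, Derl3, Sdc1, Xbp1, Txndc5 and Prdm1. The 7 genes were chosen by symbol among the 27998 genes of the feature list, and Jchain was picked because earlier results on these data had shown its large difference between the libraries. Its own level is therefore given as a description. Single-cell RNA was measured in Lin- Sca-1+ c-Kit+ (LSK) bone marrow cells, the sorted stem and progenitor compartment of the marrow, from 3-month-old mice on the C57BL/6 background. Trmt6 WT cells (genotype label Trmt6fl/fl) and conditional knockout (cKO) cells (genotype label Trmt6fl/fl, MX1-cre) gave 1 library each. TRMT6 is the non-catalytic partner in an enzyme that methylates adenosine in tRNA, and the MX1-cre transgene drives the recombinase from an interferon-inducible promoter that is not restricted to blood cells. Per the study's figure legend for the single-cell experiment both genotypes carried Mx1-Cre and received pIpC, whereas the labels name the transgene in the cKO only. That legend gives the control as Trmt6+/+ Mx1-Cre, while the study's methods name Trmt6fl/+ Mx1-Cre mice beside the Trmt6fl/fl Mx1-Cre mice. How many mice were pooled in each library is not given in the sources used here, so genotype, animals and library cannot be told apart and no difference between the libraries has a replicate check.

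A B cell that becomes a plasma cell turns into a factory for antibody. Prdm1 (Blimp-1), a transcription factor, shuts off the B cell programme, and Xbp1, a transcription factor of the unfolded protein response, enlarges the endoplasmic reticulum (ER). Mzb1, an ER chaperone cofactor, and Txndc5, a disulfide isomerase, help to fold and assemble immunoglobulin. Derl3 takes part in the export of misfolded proteins from the ER, and Sdc1 (CD138) is the surface proteoglycan by which plasma cells are sorted. Plasma cells live in bone marrow, and an LSK sort is meant to keep stem and progenitor cells. The lineage antibodies named in the study's methods include none to Sdc1.

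The promoters of Jchain and Derl3 are shown because UMIs of these genes were the most concentrated of the members' in a few cells of the cKO library. Each runs from 250 bases before to 50 bases after the start site in RefSeq (GRCm38.p6), at chr5:88527848-88528147 on the minus strand for Jchain and chr10:75893148-75893447 on the plus strand for Derl3. Capitals mark CCACG, the short box of the ER stress response, CACCTG, an E-box of the kind read by E proteins in B cells, and the CCAAT of the full ER stress response element, in which CCAAT and CCACG stand 9 bases apart. Each was searched on both strands.
Jchain: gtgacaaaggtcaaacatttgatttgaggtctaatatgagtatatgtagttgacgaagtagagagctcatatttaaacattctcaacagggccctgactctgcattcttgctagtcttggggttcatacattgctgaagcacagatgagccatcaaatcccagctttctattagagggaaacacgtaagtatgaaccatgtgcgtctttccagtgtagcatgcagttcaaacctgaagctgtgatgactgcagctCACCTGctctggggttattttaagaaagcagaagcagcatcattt
Derl3: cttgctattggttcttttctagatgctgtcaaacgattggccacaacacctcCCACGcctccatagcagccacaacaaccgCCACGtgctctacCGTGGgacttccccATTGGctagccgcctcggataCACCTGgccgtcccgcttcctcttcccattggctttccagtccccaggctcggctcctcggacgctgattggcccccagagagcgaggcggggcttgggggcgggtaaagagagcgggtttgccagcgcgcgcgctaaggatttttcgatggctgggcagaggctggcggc
The Derl3 promoter held 3 matches to CCACG, 1 of which belonged to a full element on the minus strand that began 156 bases before the start site, and 1 match to CACCTG. The Jchain promoter held no CCACG and 1 CACCTG, which began 5 bases after the start site. Among 32851 promoters of the same length, 32.8% held CCACG, 20.2% held CACCTG and 0.119% held the full element. Of the 7 members, 6 were matched to 8 promoter entries, and the full element was found in that of Derl3 alone. A match is a description of letters in this window and does not show that a factor binds there.

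The matrices held 8869 WT and 9260 cKO barcodes with 47991455 and 98323201 unique molecular identifiers (UMIs, 1 per captured molecule). The study's limits and a doublet score left 8145 WT and 8478 cKO cells for the description, at a median of 4165 UMIs per WT cell and 10054 per cKO cell. The libraries shared 24 barcodes. The targeted gene, Trmt6, stood at 63.7 CPM (UMIs per 1000000 UMIs; 95% Poisson interval 61.3 to 66.1) in the WT cells and at 50.6 CPM (49.1 to 52.1) in the cKO cells. These are counts near the 3′ end of the transcript, and whether that end lies in the deleted part is not given in the sources used here, so the level does not check the labels. Every interval is given at 95% and covers the error of counting alone.

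Jchain was almost absent from the WT library and abundant in the cKO library. The 8145 WT cells held 11 Jchain UMIs, at 0.263 CPM (0.131 to 0.470), and the 8478 cKO cells held 35120, at 403 CPM (399 to 407). The log2 ratio of cKO over WT was 10.52 (9.74 to 11.59, exact conditional binomial). Jchain lies on chromosome 5, positions 88519809 to 88527891 (GRCm38, minus strand). Most of its UMIs came from a very small number of cells.

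In the cKO library, 32 of 8478 cells (0.377%, Clopper-Pearson 0.258 to 0.532%) held 100 or more Jchain UMIs per 10000 UMIs and are called Jchain-high. No WT cell did, and 0 of 8145 cells allows a share of up to 0.0368% when set at 3 counts, or 0.0453% by Clopper-Pearson. These 32 cells held 34212 Jchain UMIs, which were 97.4% (97.2 to 97.6%) of the library's Jchain UMIs, although they held 0.166% of all its UMIs. Per cell, they carried 374 Jchain UMIs at the lowest, 1166.5 at the median and 1723 at the highest. Jchain thus made up 23.7% of all UMIs counted in them. The threshold fell in an empty stretch, since the first cell inside it had 654 Jchain UMIs per 10000 (420 of 6420) and the first outside had 39.3 (2 of 509).

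**Figure D1:**
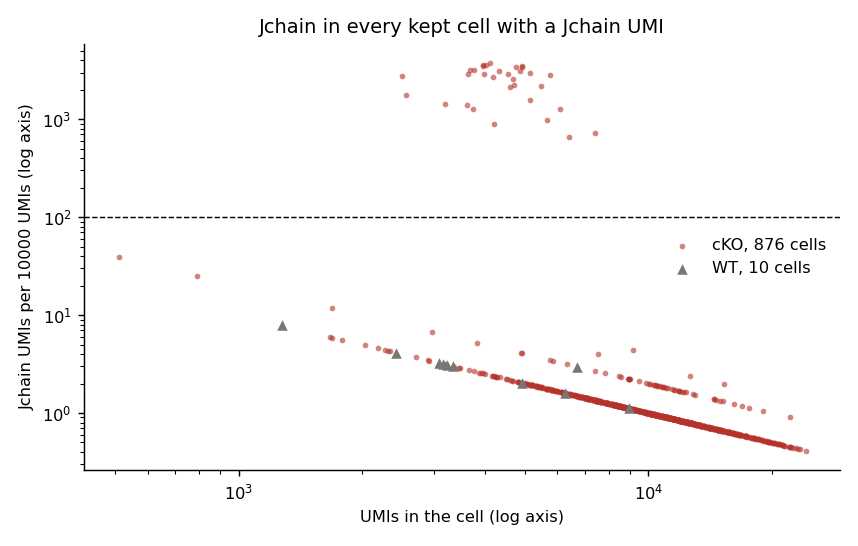
Each point is a kept cell with at least 1 Jchain UMI, by its total UMIs (x axis, log) and its Jchain UMIs per 10000 (y axis, log), for 876 cKO cells (red dots) and 10 WT cells (grey triangles); the dashed line is the threshold of 100. The 32 Jchain-high cells sit at 654 or more, and the other cells sit at 39.3 or less, most of them on the lines given by 1 or 2 UMIs.

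The Jchain-high cells were of modest depth for this library, with 2499 to 7400 UMIs (median 4435) and 841 to 1908 genes. Their mitochondrial share was 1.42 to 3.19%. Another 9 cKO barcodes passed the same threshold but were not kept. Of these, 8 were marked as likely doublets and had 254 to 1344 Jchain UMIs per 10000, with 8188 to 18159 UMIs each. The last had 30 Jchain UMIs of 635 and a mitochondrial share of 12.6%. None of these 41 barcodes occurred in the WT library.

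Nearly all of these cells fell in 1 cluster. When the cKO cells were clustered on genes that left out all 7 members and the plasma cell and secretory lists, a cluster of 31 cells formed, and all 31 were Jchain-high. Jchain, Slpi, Mzb1, Prg2 and Cd74 led its genes, and the cluster was named plasma cell-like from 9 markers. Those markers were the 7 members, Tnfrsf17 and Irf4, so the name rests mostly on Jchain and the genes listed with it. The remaining Jchain-high cell, at 731 per 10000, fell in a B cell-like cluster of 232 cells led by Igll1, Vpreb3 and Ebf1.

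The ER chaperone cofactor Mzb1 was present in all 32 Jchain-high cells, with 4 UMIs at the lowest, 17 at the median and 46 at the highest. Xbp1 was also present in all of them, with 2, 12 and 55 UMIs. Txndc5 was found in 30 of the cells, with a median of 5 UMIs and a highest value of 24. Mzb1, Xbp1 and Txndc5 therefore accompanied Jchain in nearly every cell. Sdc1, the surface marker, was found in 27 cells, with a median of 2 UMIs and a highest value of 8, and Derl3 in 21, with a median of 2 and a highest value of 7. Prdm1 was found in 5 cells with 1 UMI each. The transcription factor that defines the lineage was thus close to the limit of detection. Of the 6 other members, 3 were detected in 3 cells, 4 in 10 cells, 5 in 16 cells and all 6 in 3 cells.

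**Figure D2:**
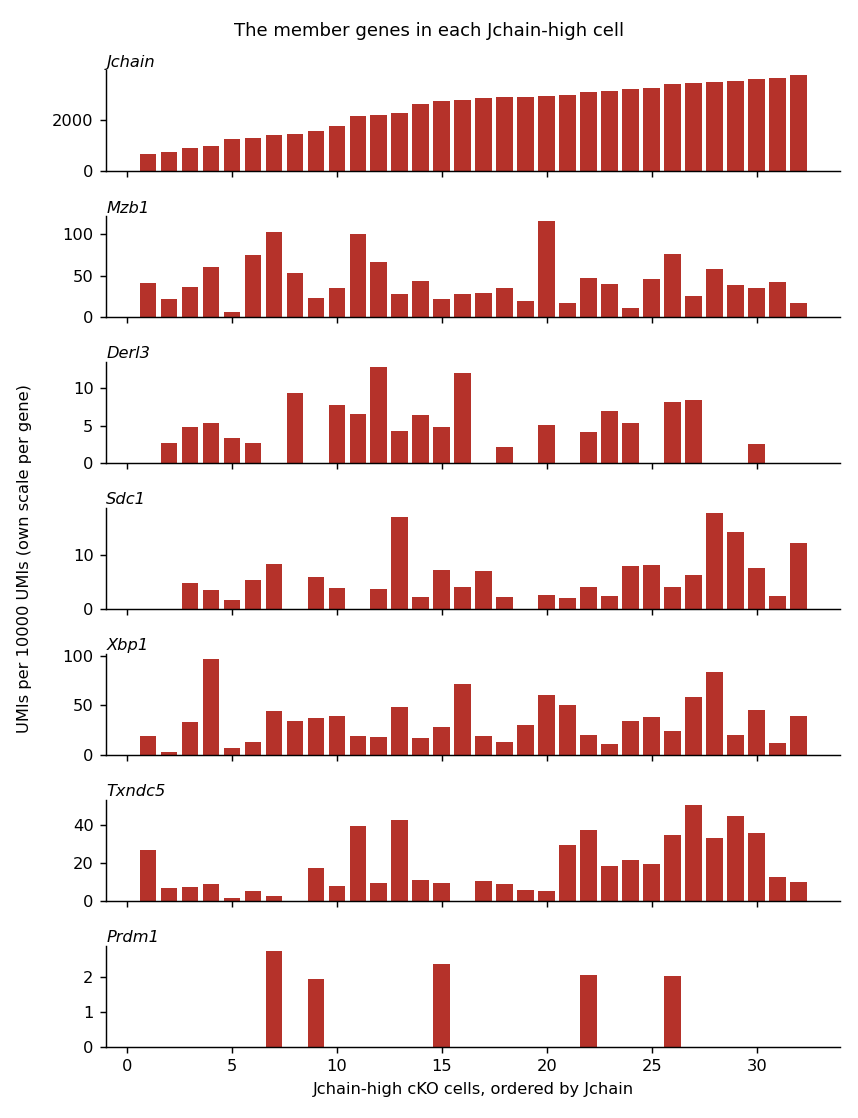
UMIs per 10000 UMIs (y axis, a scale of its own for each gene) of the 7 members in each of the 32 Jchain-high cKO cells, ordered from left to right by Jchain. Mzb1 and Xbp1 have a bar in every cell, Derl3 in 21 and Prdm1 in 5. Whether a member follows Jchain among these cells was not tested.

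For other cells of the same depth, 2499 to 7400 UMIs, the shares were far lower. Mzb1 was found in 3.11% (2.37 to 4.0%) of 1866 other cKO cells and in 0.239% of 5864 WT cells. Derl3 was found in 65.6% (46.8 to 81.4%) of Jchain-high cells, 0.107% (0.0130 to 0.387%) of the others and 0.102% of WT cells. For Sdc1 the shares were 84.4% in Jchain-high cells, 2.41% in the others and 2.81% in WT. Away from the Jchain-high cells, few cells of this depth had any of these 3 genes. Xbp1 and Txndc5 were in wide use, and were found in 51.5% and 28.7% of the other cKO cells and in 21.7% and 16.8% of WT cells. Prdm1 was found in 15.6% (5.28 to 32.8%) of Jchain-high cells, 0.268% of the others and 0.153% of WT cells. The other cKO cells in this window had a median of 5980 UMIs, and the Jchain-high cells had 4435.

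Over whole libraries, the members behaved differently once the 32 cells were taken out. Besides Jchain, 5 of the 6 other members were above 0 in the log2 ratio of cKO over WT, and Mzb1 and Xbp1 were at 1 or more. Among the 9152 genes that reached 5 CPM in either library, 43.1% were above 0 and 2.94% at 1 or more. Derl3 and Prdm1 stayed under that minimum, and Mzb1 met it only through the cKO library, where it is high, so the members' count is not set against these shares. Mzb1 was at 0.955 CPM in the WT cells and 11.9 CPM in the cKO cells, with a log2 ratio of 3.62 (3.19 to 4.14), which was 2.34 (1.89 to 2.86) without the Jchain-high cells and 4.42 over all kept cells when each cell was scaled before averaging. Derl3 turned around. Its log2 ratio was 0.78 (0.05 to 1.62) over all kept cells and -1.39 (-2.48 to -0.34) without the Jchain-high cells, where 15 UMIs stayed in 8446 cKO cells beside 19 in 8145 WT cells. Scaling each cell before averaging gave 2.53 over all kept cells. Sdc1 was lower in cKO, with a log2 ratio of -0.60 (-0.83 to -0.37) over all kept cells and -0.91 (-1.15 to -0.67) without the Jchain-high cells.

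Xbp1 was higher in cKO and hardly depended on the Jchain-high cells. It stood at 73.0 CPM in the WT cells and 164 CPM in the cKO cells, or 159 CPM in cKO without the Jchain-high cells, which gave log2 ratios of 1.17 (1.11 to 1.22) and 1.12 (1.06 to 1.18). Txndc5 stood at 51.5 CPM in the WT cells and 67.7 CPM in the cKO cells, with log2 ratios of 0.39 (0.32 to 0.47) and 0.33 (0.26 to 0.40). Prdm1 had 14 UMIs in WT and 35 in cKO, and its log2 ratio of 0.23 (-0.67 to 1.27) was not distinguishable from 0. Within the cKO library, the Xbp1 level ranged from 90.6 CPM in the B cell-like cluster to 361 CPM in the HSC-like cluster, leaving aside the plasma cell-like cluster at 3417 CPM. In WT, Xbp1 ran from 47.3 CPM in erythroid progenitor-like cells to 132 CPM in a GMP-like cluster.

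Sdc1 had its highest WT levels in lymphoid-primed (LMPP-like) cells, at 25.1 CPM (20.1 to 31.0), and in an unnamed cluster led by Cox6a2, Dntt and Ly6d, at 16.2 CPM (12.0 to 21.2). The HSC-like WT cells were at 3.61 CPM (1.92 to 6.18). Monocyte or dendritic cell-like WT cells were at 12.2 CPM (6.32 to 21.4) and one of the GMP-like clusters at 8.01 CPM (5.02 to 12.1). In the cKO library the plasma cell-like cluster was at 533 CPM and the B cell-like cluster at 8.44 CPM (4.73 to 13.9), and no cKO cluster was named LMPP-like.

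Genes differed in how far they were confined to the Jchain-high cells. Derl3 had 78.3% (66.7 to 87.3%) of its cKO UMIs there, Mzb1 59.1% (56.0 to 62.1%) and Sdc1 19.5% (15.6 to 23.9%). Prdm1 followed with 14.3% (4.81 to 30.3%), Txndc5 with 4.51% and Xbp1 with 3.29%. Among the 11008 genes with 100 or more cKO UMIs, the share was 5% or more for 0.182%, and the median share was 0.0701%. Derl3 and Prdm1, with 69 and 35 cKO UMIs, were under that minimum, so their shares are not set against these values. Jchain had the highest share of the 11008 genes, which its use for the threshold favours.

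Of the other genes with 100 or more cKO UMIs, the 10 most like Jchain by this share were Prg2, Slpi, Ly6c2, Cd79a, Cd74, Edem1, Trp53inp1, Ly6d, Ero1lb and Epcam. Prg2, which encodes a granule protein of eosinophils, had 81.9% (76.8 to 86.2%) of its UMIs in the Jchain-high cells, and Slpi, a secreted protease inhibitor, 79.8% (78.4 to 81.3%). Slpi was found in 28 of the 32 cells, with 2429 UMIs inside and 613 outside. The other 8 genes had shares of 8.79 to 21.2%. Prg2 had 50 UMIs outside and so met the minimum only through the Jchain-high cells. Both Prg2 and Slpi were present in WT, where no Jchain-high cell was found, with 392 and 2699 UMIs. A minimum of 30 UMIs let in Gm43291, an uncharacterised gene with all of its 44 UMIs in the Jchain-high cells, Fcrla (40 of 46) and Tnfrsf17 (54 of 64). These 3 met it only through those cells, so their place in the order is set by the minimum.

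**Figure D3:**
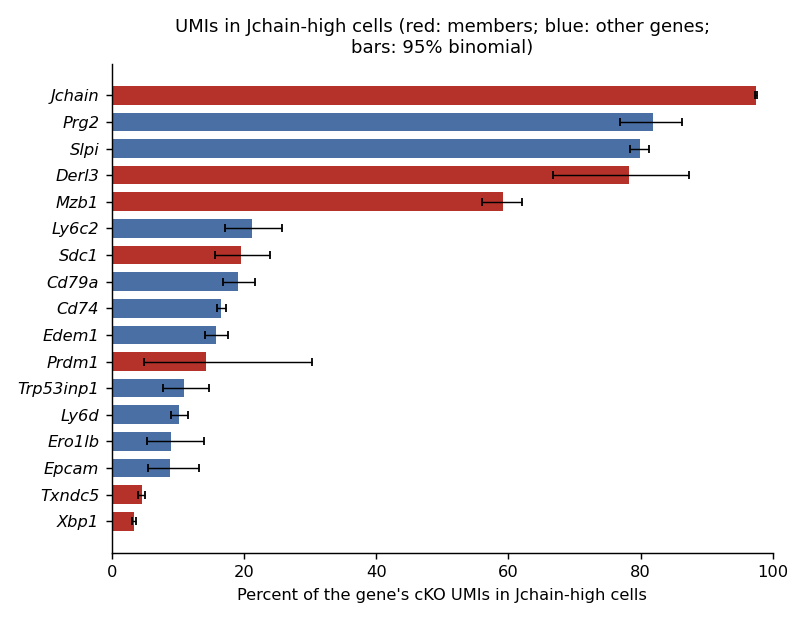
Percent of each gene's cKO UMIs that lay in the 32 Jchain-high cells (x axis), for the 7 members (red) and the 10 other genes with the largest shares among genes with 100 or more UMIs (blue); error bars are 95% Clopper-Pearson intervals. Jchain stands at 97.4%, Prg2, Slpi and Derl3 at 78.3 to 81.9%, and Xbp1 at 3.29%.

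Plasma cell regulators and receptors differed widely in where their UMIs lay. A single UMI in the 32 cells together amounts to 6.93 CPM, so a minimum of 5 CPM in either group of cells lets a gene pass through the Jchain-high cells alone, and 11 of the 15 genes of this list that met it did so. Those 11 are described by their UMIs only. Tnfrsf17 (BCMA), the survival receptor of plasma cells, was found in 26 cells with 54 UMIs, beside 10 UMIs in the 8446 other cells. Irf4, a transcription factor of plasma cell differentiation, had 7 UMIs in 7 cells and 6 UMIs in the whole remainder. Slamf7, a surface receptor, had 40 UMIs in 20 cells and 36 outside. Others of the 11 lay mostly outside, such as Ly6c2 (78 UMIs inside and 290 outside), Trp53inp1 (37 and 303) and Ell2, an elongation factor (23 and 397). Cd38, which met neither minimum, had 0 UMIs inside, which allows up to 20.8 CPM beside the 1.31 CPM outside, so a difference was not detectable at this depth. With the minimum set over all kept cKO cells, 4 genes of the list were left, of which 2 were at a log2 ratio of 1 or more, where 10.1% of 8564 genes were, and the median of all these genes was -0.65. Tnfrsf13b, a receptor of the same family as Tnfrsf17, was at 2.66 (2.21 to 3.05) and Zbtb20, a transcription factor, at 2.37 (1.24 to 3.19). Itga4 had 4 UMIs inside, with a log2 ratio of 0.44 (-1.61 to 1.63), and Cxcr4, the marrow homing receptor, had none, which allows up to 20.8 CPM beside the 11.6 CPM outside.

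Among secretory pathway and ER stress genes, 35 of 46 at 5 CPM or more over all kept cKO cells were at a log2 ratio of 1 or more, beside the 10.1% of all genes. None was at -1 or less, where 37.2% of all genes were, and the median was 2.39. Edem1, of ER-associated degradation, was at 1891 CPM inside and 16.7 CPM outside, with a log2 ratio of 6.82 (6.63 to 7.01). Tram2, of protein translocation into the ER, was at 4.63 (3.91 to 5.21), Creld2 at 4.16 (3.91 to 4.40) and Pdia4, a disulfide isomerase, at 4.07 (3.79 to 4.32). Hsp90b1, an ER chaperone, was at 3.39 (3.24 to 3.54). The central chaperone Hspa5 (BiP) was at 2.0 (1.78 to 2.20). The lectin chaperones Calr, at 0.29 (-0.15 to 0.68), and Canx, at -0.21 (-1.03 to 0.43), were not distinguishable from the other cells on these totals. Since Jchain took 23.7% of UMIs in these cells, leaving it out of the totals raised every log2 ratio by 0.39, which put Calr at 0.68 (0.24 to 1.07), above 0, and Canx at 0.18 (-0.64 to 0.82). The shares of all genes moved too. Among the 9532 genes at 5 CPM in either group of cells, those at 1 or more went from 19.2 to 26.0%. Those at -1 or less went from 33.4 to 22.9%, and the median from -0.51 to -0.12. With that minimum, secretory genes at 1 or more went from 37 to 41 of 48.

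B cell identity genes were at a log2 ratio of 1 or more for 4 of the 6 that met the minimum over all kept cKO cells, beside 10.1% of all genes, with a median of 3.24. Cd79a, the signalling chain of the B cell receptor, was found in all 32 cells with 209 UMIs, a log2 ratio of 7.16 (6.93 to 7.37). Ms4a1 (CD20) had 11 UMIs in 9 cells and none in the other 8446 cKO cells. Pax5, the B cell identity factor, had 2 UMIs in 1 cell. Among genes of the surrogate light chain of pre-B cells, Vpreb1 had 2 UMIs inside, a log2 ratio of 0.75 (-2.62 to 2.29), and Igll1 had 1 UMI, a ratio of -0.12 (-6.01 to 1.78), so that neither level could be told apart from that in the other cells. Vpreb3 had 58 UMIs in 22 of the 32 cells, a log2 ratio of 5.15 (4.73 to 5.52). None of the 12 immunoglobulin constant gene symbols listed matched the feature list, so these genes were not analysed here.

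The antigens of the sort were also counted. Ly6a (Sca-1) had 124 UMIs in 26 of the 32 cells, at 859 CPM beside 141 CPM in the other cKO cells, a log2 ratio of 2.61 (2.34 to 2.86). Kit (c-Kit) had 1 UMI, where the level of the other cells would give 3.11, and its ratio of -1.05 (-6.94 to 0.84) was not distinguishable from 0. Cd34 was lower, with 4 UMIs and a ratio of -2.70 (-4.74 to -1.51). Of 7 sort and lineage antigens that met the same minimum, 1 was at 1 or more, beside 10.1% of all genes, and 3 (Kit, Cd34 and Slamf1) were at -1 or less, beside 37.2%, though Slamf1 had 0 UMIs inside, which allows up to 20.8 CPM beside 7.45 CPM outside. With Jchain left out of the totals, 1 of the 7 was at -1 or less.

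Markers of other cell types were counted by their summed level. By the counting interval of the ratio, 5 of 11 lists were lower inside the Jchain-high cells than in the other cKO cells, 4 were higher, and 2 lay within counting error. All 8 basophil or mast cell markers were at 0, as were Elane, Ms4a3, Calr4 and Cebpe of the 7 GMP markers, whose sum was 62.3 CPM inside and 744 CPM outside. HSC, megakaryocyte and T or NK cell markers, also lower, ran from 41.6 to 55.4 CPM inside and from 163 to 279 CPM outside. The lists within counting error were the LMPP markers, at 125 CPM inside and 119 CPM outside, a log2 ratio of 0.10 (-0.69 to 0.73), with Mn1, Il7r and Rag2 at 0, and the erythroid progenitor markers, at 20.8 and 31.5 CPM, a log2 ratio of -0.38 (-2.88 to 0.95). Neutrophil markers, at 8 UMIs, were higher inside, at 55.4 and 7.95 CPM, a log2 ratio of 2.89 (1.58 to 3.79), with Ngp, Camp, Ltf, Lcn2 and Retnlg at 0. B cell markers summed to 2584 CPM inside and 98.6 CPM outside, with none at 0. Siglech, a defining marker of plasmacytoid dendritic cells, was at 0 together with 4 others of its list of 12, whose sum was 2265 CPM inside and 695 CPM outside. Monocyte or dendritic cell markers summed to 13786 CPM inside and 755 CPM outside, with Csf1r and Ccr2 at 0 and Cd74, a chaperone of MHC class II, at 11826 CPM. The part of these transcripts in the levels above was not tested.

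Outside the Jchain-high cells, 8446 cKO cells held 908 Jchain UMIs, at 10.4 CPM (9.77 to 11.1), which was 39.7 times (22.1 to 79.9) the WT level. At least 1 UMI was found in 9.99% (9.36 to 10.7%) of these cells. Of the cells, 7602 had 0, 785 had 1, 55 had 2 and 4 had 3 or more, with a highest count of 4. In droplet data, RNA released by broken cells is captured in every droplet, at a number of UMIs that depends little on the cell in it. A single rate per cell gives 7585.1, 815.4, 43.8 and 1.61 cells, and a single rate per UMI gives 7591.5, 803.4, 48.8 and 2.30 cells. The observed variance over the mean was 1.05, where a single rate per cell gives 1 in a Poisson count. Low Jchain was thus spread thinly over many cells, with slightly more cells at 2 and above than either single rate gives.

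Depth separated these rates. With the cells in 5 equal bins by UMIs, the median depth rose from 5537 to 15273, and the Jchain level fell from 17.2 CPM (14.6 to 20.2) in the shallowest bin through 13.8, 9.36 and 9.91 to 7.61 CPM (6.61 to 8.72) in the deepest. Counted per 100 cells, it was 8.93 (7.57 to 10.5) in the shallowest bin, then 11.1, 9.41 and 12.0, and 12.3 (10.6 to 14.0) in the deepest. A count per cell that followed depth would have risen as depth did, and the observed count rose much less, though the intervals of the shallowest and the deepest bin did not overlap.

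**Figure D4:**
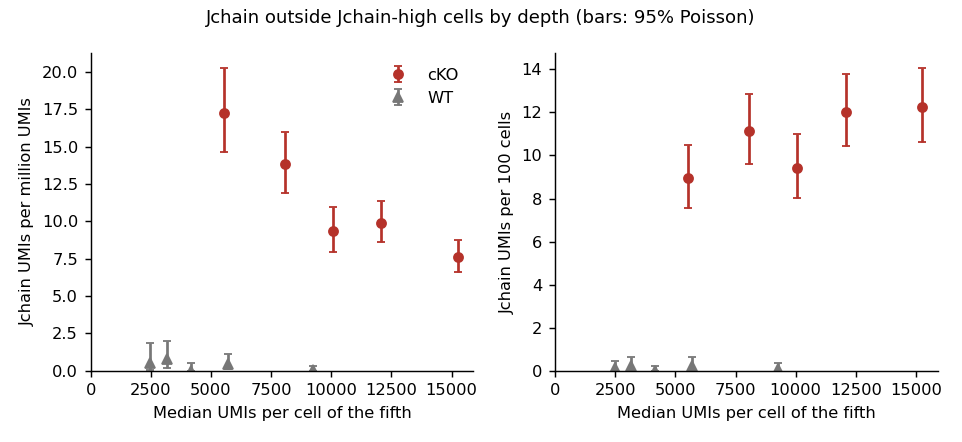
Jchain outside Jchain-high cells in 5 bins of cells by depth, as UMIs per 1000000 UMIs (left) and as UMIs per 100 cells (right), against the median UMIs of the bin, in cKO (red dots) and WT (grey triangles); bars are 95% Poisson intervals. In cKO the left values fall from 17.2 to 7.61 and the right values go from 8.93 to 12.3, while the WT values lie near 0 throughout.

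Every one of the 16 cKO clusters that held cells outside the threshold had Jchain UMIs. Per 100 cells, the values ran from 8.15 in HSC-like cells to 15.4 in a cluster of 26 cells led by Cd74, around 10.8 for all. That cluster and another of 25 cells have wide intervals at their size, which would hold the library's value over a broad range of rates. The interval of the count per cell held the library's value in 14 of 16 clusters, and the interval of the level per UMI did so in 11 of 16. The exceptions per cell were HSC-like cells, at 8.15 (6.32 to 10.4), and an unnamed cluster led by Ube2c, Ccnb1 and Plk1, at 14.8 (11.0 to 19.6). The exceptions per UMI were 2 unnamed clusters, at 13.6 and 7.62 CPM, and 3 further ones above the library's 10.4 CPM. Among those, B cell-like cells were at 16.4 CPM, from 29 UMIs in 231 cells, and at 12.6 (8.41 to 18.0) per 100 cells. T or NK cell-like cells, of median depth 2183 UMIs, were at 35.1 CPM and 11.8 per 100 cells, and an unnamed cluster of median depth 1789 UMIs was at 54.1 CPM and 10.2 per 100 cells. The share of cells with a Jchain UMI was 11.3% in B cell-like cells at a median of 7522 UMIs, 13.2% in erythroid progenitor-like cells at 14354.5 and 9.68% in T or NK cell-like cells.

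**Figure D5:**
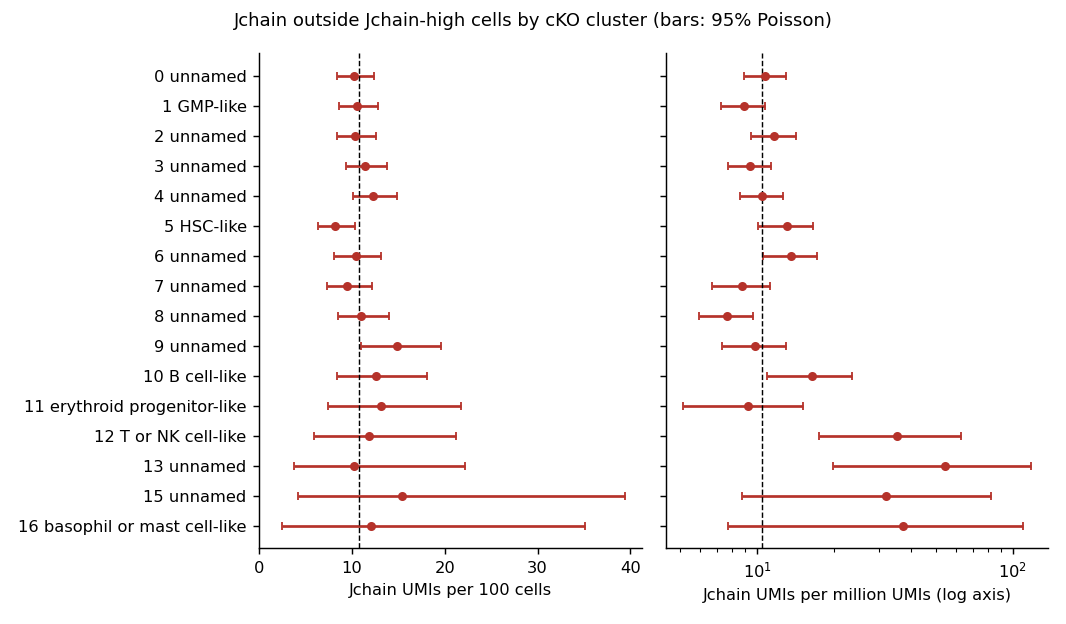
Jchain outside Jchain-high cells in the 16 cKO clusters, as UMIs per 100 cells (left) and as CPM (right, log axis); bars are 95% Poisson intervals and dashed lines are the values of all cells outside the threshold. On the left 14 of 16 intervals cross the line, and on the right 11 of 16.

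Cells with low Jchain showed no detectable excess of the other members. An excess at the ratio of the Jchain-high cells would, however, have been too small to detect. At that ratio, all Jchain UMIs outside the threshold would come with 16.3 Mzb1, 12.5 Xbp1, 7.06 Txndc5, 1.94 Sdc1 and 1.43 Derl3 UMIs. The cells with low Jchain held 49, 1330, 599, 35 and 1 UMIs of these genes. Whether the other members came with the low Jchain was therefore not tested. Cells with 1 or more Jchain UMIs outside the threshold (844) and cells with none (7602) had Mzb1 at 5.39 and 4.82 CPM, a log2 ratio of 0.17 (-0.30 to 0.59). The ratio was 0.19 (-0.38 to 0.68) for Sdc1 and 0.03 (-0.10 to 0.15) for Txndc5, and Derl3 had 1 UMI among the former and 14 among the latter. Xbp1 was slightly lower in cells with Jchain, at -0.13 (-0.21 to -0.05). Of the 55 cells with 2 Jchain UMIs, which fell in 13 clusters, 2 had Mzb1 and 0 had Derl3. Of the 3 cells with 3 Jchain UMIs, which were B cell-like or in unnamed clusters, 1 had Mzb1, and the only cell with 4 was GMP-like and had none. The 50 cells outside the threshold with 3 or more Mzb1 UMIs held 9 Jchain UMIs, with 3 in a cell at most. Of 4 further cKO cells outside the threshold with at least 3 other members and Derl3, all had 0 Jchain UMIs at a median of 14753 UMIs.

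The members differed in how many UMIs lay outside the Jchain-high cells for each UMI inside. Per 100 UMIs inside, Jchain had 2.65 (2.48 to 2.83) outside, which the threshold on Jchain itself favours. Derl3 had 27.8 (14.6 to 49.9), Mzb1 69.2 and Sdc1 412, and Prdm1 600 from 35 UMIs in all. Xbp1 and Txndc5, which other cells use widely, had 2940 and 2120.

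Most of the Mzb1 outside lay in 1 cluster. The 231 B cell-like cells outside the threshold held 348 of its 425 UMIs (81.9%), with Mzb1 in 44.2% of them and up to 20 UMIs in a cell. No Mzb1 UMI was found in 114 erythroid progenitor-like cells, which allows 2.63% of cells with a UMI, or in 93 T or NK cell-like cells, which allows 3.23%. These limits are on cells with a UMI at this depth, not on cells that express the gene. In the B cell-like cells, 102 with Mzb1 held 16 Jchain UMIs and 129 without held 13. Of the 908 Jchain UMIs outside the threshold, B cell-like cells held 29. The source of the low Jchain was not tested.

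The WT library gives the level without Jchain-high cells. Its 11 UMIs lay in 10 cells of 6 clusters, 1 each in 9 cells and 2 in 1 cell. Those cells had 1272 to 8987 UMIs, and none had Mzb1, Derl3, Sdc1 or Prdm1. None of their barcodes occurred in the cKO library. Thinned to 2000 UMIs per cell, a Jchain UMI was found in 5 of 7944 WT cells (0.0629%, 0.0204 to 0.147%) and in 201 of 8341 cKO cells outside the threshold (2.41%, 2.09 to 2.76%), beside 0.123% and 9.99% without thinning. Thinning left out 201 WT and 105 cKO cells. The difference between the libraries outside the threshold was thus present at equal depth. In WT, Mzb1 had 40 UMIs in 21 cells, of which 16 lay in the unnamed cluster led by Cox6a2, Dntt and Ly6d, and 3 cells had 3 or more. No WT cluster took the name B cell-like, plasma cell-like or T or NK cell-like.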

How the data were processed

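UMI counts for each gene and barcode were used as deposited by the authors, whose processing used Cell Ranger 6.0.0 and GRCm38 (mm10); reads were not analysed here. The labels name kit v2 and the study's methods kit v3. The study's limits were applied (over 200 genes; under 4000 genes and 10% mitochondrial UMIs in WT, under 4500 and 5% in cKO; under 5% hemoglobin UMIs). Likely doublets, 618 WT and 673 cKO cells within the limits, were removed by a score from simulated doublets among 50 neighbours, at 0.8% per 1000 barcodes. Each library was clustered by Leiden (leidenalg 0.10.2, resolution 1) without the members, plasma cell and secretory lists, and clusters were named from 12 marker lists. Positions came from GENCODE M21, promoters from RefSeq. CPM are UMIs summed over cells, log2 ratios add 0.5 prior counts, and intervals are exact (scipy 1.17.1). Each group being 1 library, nothing could be tested between samples. Calculations were tested on simulated data. Named genes were the 7 members, the 10 other genes with the largest share of cKO UMIs in Jchain-high cells (100 UMIs or more) and the genes of the lists. Members, lists and the threshold of 100 Jchain UMIs per 10000 were chosen with earlier results of these data known. Alternatives were other filters, thresholds and minimums, thinning, and scaling by TMM (edgeR 4.0.16), size factors or other totals; those added after seeing the data left Jchain out of the totals, set the minimum of 5 CPM for the lists over all kept cKO cells, and changed the filters for the ratio of UMIs outside to inside. A withheld item is not reported here.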

Additional observations from a re-analysis of the deposited data

How the results depend on the processing

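Leaving out the Jchain-high cells moved the log2 ratio of Jchain from 10.52 to 5.25, and the ratio of Derl3 to -1.39, the only change of sign. Under the other 6 settings the Jchain ratio was 10.53 to 11.21 and 5 of the 6 other members stayed above 0. Scaling each cell before averaging moved Derl3 from 0.78 to 2.53 and Mzb1 from 3.62 to 4.42. It also moved Xbp1 from 1.17 to 1.44 and Txndc5 from 0.39 to 0.59. TMM, size factors and totals without mitochondrial and ribosomal protein genes put Xbp1 at 1.26 to 1.27 and Txndc5 at 0.49. All of these Xbp1 and Txndc5 values lay above the counting intervals of the main ratios. Requiring at least 3 other members and Derl3, without Jchain, gave 25 cKO cells and 7 WT cells in place of 32 and 0. Of the 25 cKO cells, 21 were Jchain-high. The 7 WT cells held 0 Jchain UMIs at a median of 9532 UMIs, so the rule also took in deep cells without Jchain. Without doublet removal the share of Jchain UMIs in Jchain-high cells was 97.6%, by 40 cells, and the UMIs outside per 100 inside were 2.48 in place of 2.65, an alternative added after seeing the data. Thinning to 2000 UMIs moved the Jchain level outside from 10.4 to 12.5 CPM. With minimums of 30 and 300 UMIs, 2 and 7 of the 10 genes most like Jchain were shared. Without a minimum level, 14 B cell identity genes in place of 8, and 7 sort and lineage antigens in place of 1, were at a log2 ratio of 1 or more, but 7 genes of each list had no UMI in the Jchain-high cells, so that the 0.5 prior counts set their ratios. With 5 CPM required over all kept cKO cells, an alternative added after seeing the data that the lists are described by, 2 plasma cell regulators in place of 13 and 4 B cell identity genes in place of 8 were at 1 or more. No paired analysis was possible because each genotype has 1 library, and for the same reason no replicate could be left out. Levels of 1 to 3 UMIs, as for Prdm1, Kit and Pax5, are limited by depth.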
